A study of Mus musculus with 5 samples.

Results

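EpH4 cells that carried Cas9 and a control single guide RNA (sgControl) were described on their own, from 3 of the 5 RNA sequencing libraries of the series. EpH4 is a non-transformed line of mouse mammary epithelium, of BALB/c origin, that can be grown in culture without limit. The study deleted the transcription factor Mef2d in this line by CRISPR-Cas9 and sequenced poly(A)-selected RNA, and the control guide served as its reference. The Cas9 transgene and the viral transduction belonged to the control cells as well, so the levels given here are those of an engineered line grown in serum and not of the parental line or of mammary tissue. The sgControl libraries were chosen by their label, and the genes by 15 lists of lineage, keratin, adhesion, matrix, receptor, metabolic, cell cycle and sex-linked or imprinted genes. Of the 873 members of these lists, 536 had a value among the 12934 genes listed in the count table. The labels do not say whether the 3 libraries came from separate cultures, so the spread between them may be technical.

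The mammary epithelium is built of an inner luminal layer, which makes milk, and an outer basal or myoepithelial layer, which contracts and rests on the basement membrane. Luminal cells are known for keratins 8 and 18, E-cadherin and hormone receptors, and basal cells for keratins 5 and 14, the transcription factor p63 and smooth muscle proteins. Epithelial sheets are held together by adherens junctions, tight junctions and desmosomes, and are tied to laminin in the basement membrane by integrins. Fibroblasts lie beneath and make most of the interstitial collagen of the gland.

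Levels of one gene across libraries are given as CPM, the share of a library's counts over the listed genes that fell on the gene, scaled by 1000000. Levels of different genes are compared in TPM, in which each count was first divided by the length of the merged exons of the gene and the values of a library were again scaled to 1000000. Orders in TPM rest on this length, and with another length the highest gene of some groups changed. Values after ± are SD over the 3 libraries (n = 3). A gene was taken to reach a CPM level when it did so in each of the 3 libraries, and to lie at the floor when no library held more than 3 counts, which corresponds to 0.146 to 0.221 CPM. This floor covers counting error only. The table had already been filtered for low counts over all 5 libraries, and a gene with no row is described as not listed: it has no value here, and a missing row does not by itself show that a gene was silent. No other condition was set against the control cells, so no test was made.

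The libraries held 13601145 to 20498563 counts. Of the 12934 listed genes, 11410 (88.2%) reached 1 CPM, 8766 (67.8%) reached 10 CPM and 2351 (18.2%) reached 100 CPM. Of the 22028 annotated protein-coding genes 52.9% were listed, and 74.2% of these reached 10 CPM. The median level was 29.0 CPM, or 21.4 TPM. Mitochondrial transcripts took 2.21% to 2.47% and ribosomal protein genes 5.64% to 6.69% of the counts. The library of replicate 1 stood apart from the other libraries. Among 8942 genes with a mean of at least 10 CPM, 578 (6.46%) differed at least 1.25-fold in replicate 1 from the mean of the other libraries, against 100 for replicate 2 and 159 for replicate 3. The ratio followed transcript length: the median ratio of replicate 1 to the others was 1.10 in the fifth of genes with the shortest exons (median 1995 bases) and 0.924 in the fifth with the longest (median 10543 bases). For several long genes that were lowest in replicate 1 the mean without it is also given below, and the part of library handling in these differences was not tested.

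**Figure D1:**
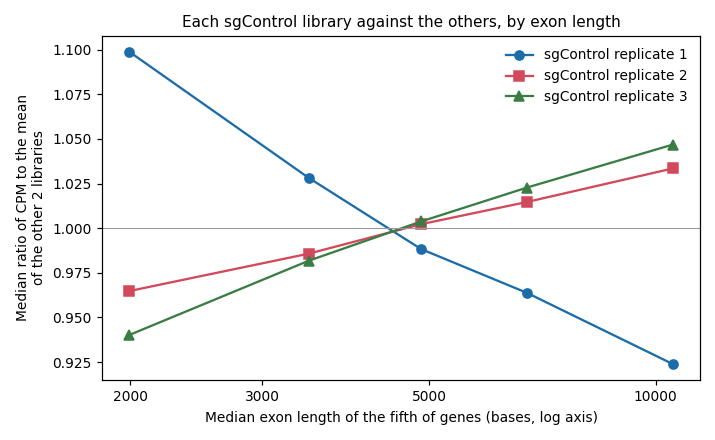
Median ratio of CPM in each sgControl library to the mean of the other 2 libraries (y axis) in 5 groups of genes ordered by exon length (x axis, bases, log axis). Replicate 1 falls from 1.10 to 0.924 with length, while replicates 2 and 3 lie close to each other.

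The cells carried the full epithelial marker list. All 12 epithelial markers were listed and 11 reached 10 CPM in every library. Prss8, which encodes the membrane serine protease prostasin, was the lowest at 12.1, 11.1 and 9.71 CPM. The summed level of the 12 markers was 2747 to 2827 CPM. Krt8 and Krt18, the paired type II and type I keratins of simple epithelia, lay at 1738 ± 37.4 TPM and 1720.1 ± 47.8 TPM. Epcam, an epithelial adhesion molecule, reached 255, 252 and 255 CPM in the 3 libraries, a spread of 254 ± 1.98 CPM. Cdh1, which encodes E-cadherin, reached 234, 256 and 271 CPM. On the TPM scale Epcam (405) stood above Cdh1 (194) and Cldn7 (157), a tight junction claudin. Esrp1 and Esrp2, the epithelial splicing regulators, lay at 93.1 ± 9.6 TPM and 34.6 ± 2.63 TPM. The transport genes Rab25 and Ap1m2, which sort cargo in polarized cells, lay at 78.8 ± 4.04 TPM and 33.6 ± 1.81 TPM. The protease matriptase (St14) was at 76.9 ± 6.04 TPM and the epithelial transcription factor Grhl2 at 24.5 ± 2.96 TPM.

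Luminal markers ranged widely in level. Of 16 luminal markers 8 were listed, a share near that of all protein-coding genes, and 5 reached 10 CPM. Krt7, a simple epithelial keratin, was the highest of them by CPM at 1643, 1558 and 1575 CPM. Ly6a, which encodes Sca-1 and is carried by a subset of mammary luminal cells, reached 320.0, 267 and 245 CPM, highest in replicate 1. By TPM, Ly6a (803 ± 84.7 TPM) and Krt7 (789.7 ± 10.4 TPM) were not separated beyond their spread, and 19% of the 50-base words of Ly6a also occur in another gene, mainly Ly6c1, so some of its reads may be shared. Gata3, the transcription factor that maintains luminal fate, was present at 59.6, 66.9 and 70.6 CPM. Cd14 and the EGF receptor ligand Areg lay at 76.3 ± 5.47 TPM and 65.1 ± 3.61 TPM. The hormone-sensing genes stood far lower. Esr1, the estrogen receptor, had 5.81, 5.61 and 6.18 CPM, and its cofactor Foxa1 had 1.02, 0.995 and 1.54 CPM. Prlr, the prolactin receptor, had 0.195, 0.782 and 0.221 CPM, close to the floor. The progesterone receptor gene Pgr was not listed, nor were Krt19, Elf5, Kit, Aldh1a3, Prom1, Tspan8 and Ltf.

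Milk protein genes had no value in these cells, which were grown without a stated lactogenic stimulus. The caseins Csn1s1, Csn2, Csn3 and Csn1s2a, and Wap, Lalba, Glycam1 and Folr1 were not listed. Of the 12 milk and secretory markers 4 were listed. Mfge8, the lactadherin of the milk fat globule, was at 118, 125 and 138 CPM. Xdh, the xanthine dehydrogenase that also coats milk fat globules, was at 70.2, 73 and 71.8 CPM. Btn1a1, the butyrophilin that pairs with it, was at 2.53 ± 0.363 CPM, and Muc1 was at 1.66 ± 0.38 CPM.

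Basal markers were present in part. Of 12 basal and myoepithelial markers 8 were listed, 3 reached 10 CPM and Krt5 lay at the floor. The share of those listed at 10 CPM was 37.5%, against 74.2% of listed protein-coding genes. Krt14 was steady at 443, 436 and 441 CPM. Trp63, which encodes p63, was at 28.7, 26.7 and 32.1 CPM, and Acta2, the smooth muscle actin of myoepithelial cells, at 16.9, 19.9 and 19.2 CPM. The other contractile genes were lower: Mylk was at 7.68 ± 1.45 CPM and Tagln at 1.06 ± 0.15 CPM, while Myh11, Cnn1 and the oxytocin receptor gene Oxtr were not listed. The P-cadherin gene Cdh3 was not listed either. Lgr6, a receptor for R-spondins, was at 4.49 ± 0.913 CPM. Krt17 was at 0.293, 0.568 and 1.25 CPM, highest in replicate 3. Krt14 and Trp63 were thus measured together with the luminal genes Krt8, Krt18 and Gata3. In a bulk library, cells that carry both sets cannot be told from a mixture of cells, and fewer cells of a type cannot be told from less RNA per cell.

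Part of the mesenchymal list was abundant. Of 12 fibroblast and mesenchymal markers 9 were listed, 7 reached 10 CPM and 4 reached 100 CPM. The share of those listed at 10 CPM, 77.8%, was near the 74.2% of listed protein-coding genes. The summed level of the 9 markers was 6782 to 10895 CPM. Most of this sum was Fn1, the matrix glycoprotein fibronectin, at 5924, 8964 and 9969.5 CPM. Replicate 1 was the lowest, and the mean without it was 9467 CPM. S100a4, a calcium-binding protein known from motile cells, was highest in replicate 1, at 203, 164 and 143 CPM. Col1a2 and Col1a1, the chains of type I collagen, lay at 119.8 ± 7.32 TPM and 90 ± 23 TPM. The platelet-derived growth factor receptors Pdgfrb and Pdgfra lay at 54.1 ± 9.82 TPM and 11.9 ± 1.13 TPM. Vim, the mesenchymal intermediate filament vimentin, stood lower, at 10.8, 13 and 12 CPM. Each of these values lay under the median of 29.0 CPM over all listed genes. Krt8, Krt18, Krt7 and Krt14 lay above Vim in each library on either scale, but they are the highest of the 12 listed keratins. By CPM, Krt80 also lay above Vim (107 ± 2.62 CPM), while Krt16 (4.1 ± 0.199 CPM) and Krt6a (4.22 ± 0.638 CPM) lay below it. Other fibroblast genes were low or had no value: Col3a1 was at 1.86 ± 0.253 CPM and Dcn, the proteoglycan decorin, at 1.38 ± 0.492 CPM, and Lum, Fap and Thy1 were not listed.

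Markers of blood vessel, blood and fat cells were at 3.07 CPM or less on average, or not listed. None of the 8 endothelial markers was listed, among them Pecam1, Cdh5 and Kdr. Of 10 immune markers 3 were listed, with a summed level of 3.41 to 4.19 CPM, and Ptprc, the pan-leukocyte gene, was not listed. Csf1r was at 2.69 ± 0.559 CPM, Cd68 at 0.758 ± 0.0864 CPM and Lyz2 at 0.358 ± 0.395 CPM. Of 7 adipocyte markers 2 were listed, Fabp4 at 3.07 ± 0.694 CPM and Pparg at 1.91 ± 0.436 CPM, and Adipoq and Plin1 were not. Of 10 neural and skeletal muscle markers 2 were listed. Mbp, known for myelin, was the exception among these lists at 39.1, 49 and 46.8 CPM, and Acta1 was at 1.81 ± 0.501 CPM.

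**Figure D2:**
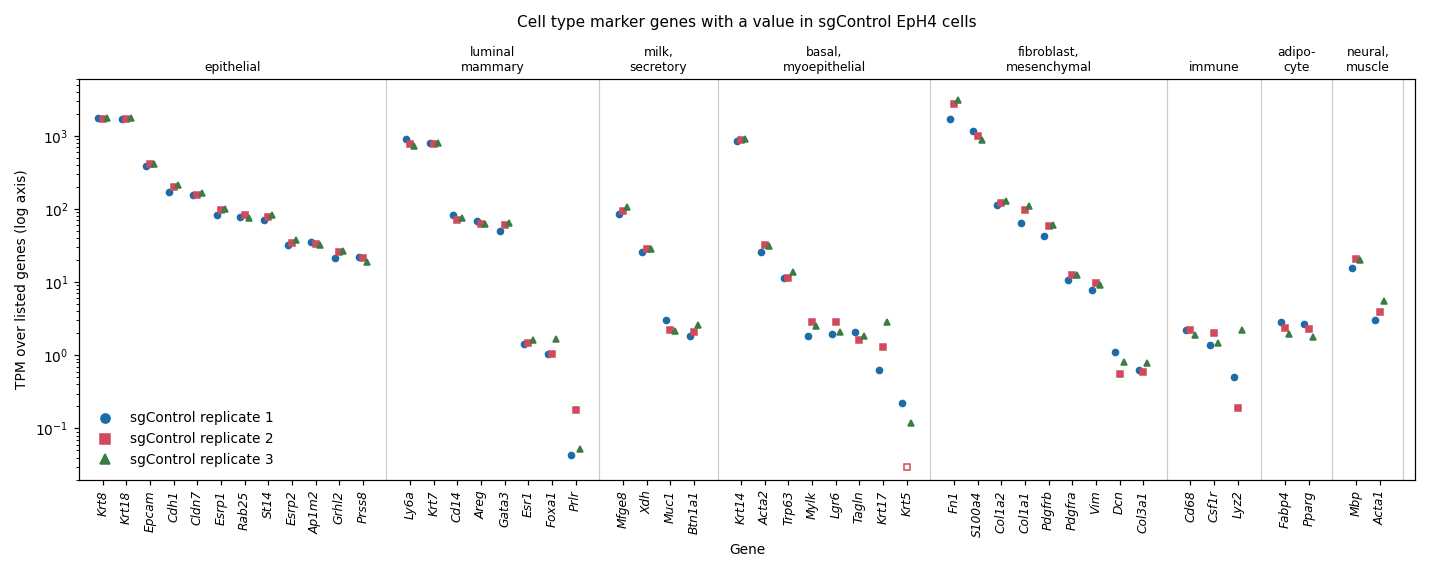
TPM over listed genes (y axis, log axis) of each cell type marker with a value, by list, with 1 symbol per sgControl library; the open symbol for Krt5 in replicate 2 marks 0 counts. Epithelial markers lie between 20.7 and 1738 TPM on average, while immune and adipocyte markers lie under 3 TPM.

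The keratin repertoire was narrow. Of 50 keratin genes 12 were listed (24.0%, against 52.9% of protein-coding genes). In every library 5 reached 10 CPM and the same 5 reached 100 CPM, so no listed keratin lay between these levels. In TPM the order was Krt8 (1738 ± 37.4 TPM), Krt18 (1720.1 ± 47.8 TPM), Krt14 (876 ± 24.8 TPM), Krt7 (789.7 ± 10.4 TPM) and Krt80 (58.8 ± 2.77 TPM). Krt8 and Krt18, which form filaments as an obligate pair, differed by less than their spread, with a Krt8 to Krt18 ratio in TPM of 1.01 ± 0.012. This pair and the other ratios given here were picked after their values were seen. Krt14, the type I partner that pairs with Krt5 in basal cells, was present with no comparable level of that partner. Krt5 (chr15:101707070-101712898) had 3, 0 and 1 counts in the 3 libraries, a mean of 0.0733 ± 0.0732 CPM. The next keratins, known from stressed or differentiating epidermis, were Krt16 at 9.16 ± 0.205 TPM, Krt10 at 6.43 ± 0.429 TPM and Krt6a at 6.09 ± 0.733 TPM. Krt16 stood 91.8 to 101 times lower than Krt14 in TPM, and 13.9% of the 50-base words of Krt14 are shared, mainly with Krt16. Krt88 and Krt17 were under 2 TPM on average. Krt6b had 0 counts in each library and has a row only through the libraries not analysed here. At these depths it cannot be told from a silent gene. The remaining 38 keratins, including Krt19, Krt15, Krt1 and the hair keratins Krt31 and Krt81, were not listed.

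**Figure D3:**
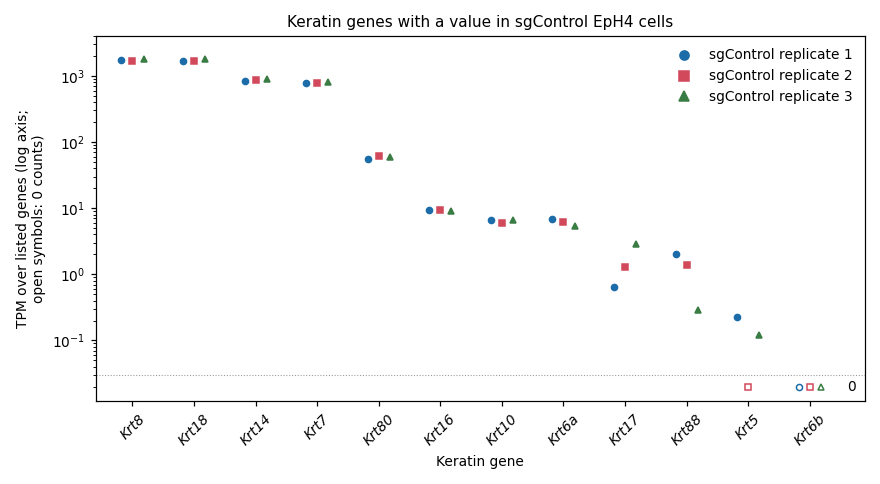
TPM over listed genes (y axis, log axis) of the 12 keratin genes with a value, with 1 symbol per sgControl library and open symbols under the dotted line for 0 counts. Krt8, Krt18, Krt14 and Krt7 lie at 789.7 TPM or more on average, and Krt5 and Krt6b lie at the bottom.

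The order of Krt7 among these genes depended on the length assigned to it. Its TPM was 0.454 of that of Krt8 with merged exons, 0.782 with the longest transcript and 1.71 with the mean transcript length, while the Krt8 to Krt18 ratio was 1.01 with each length. Krt8 also shares 26.9% of its 50-base words with other sequences, mainly its pseudogene Krt8-ps. Abundant keratins and keratins that were low or not listed lay beside each other in the genome. Krt14 (chr11:100203162-100207548, minus strand) lies between Krt9, which was not listed, and Krt16 (4.1 ± 0.199 CPM), with Krt17 (0.704 ± 0.493 CPM) next. Krt8 (chr15:101996698-102004482, minus strand) and Krt18 (chr15:102028180-102032027, plus strand) are neighbours at the edge of the type II cluster, whose members Krt78, Krt79 and Krt4 on the other side of Krt8 were not listed. Coordinates are those of GRCm38 with the GENCODE M21 annotation.

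The sequences before the annotated starts of the 3 most abundant of these keratins on chromosome 15 and of the floor-level Krt5 are shown because these genes of one keratin cluster differ in level. Each run is the 110 bases directly before the first base of one annotated protein-coding transcript of the gene, read 5′ to 3′ on the strand of the gene from RefSeq promoter windows (GRCm38.p6). For Krt8 and Krt18 that base lies upstream of the RefSeq start, and for Krt5 the RefSeq start lies inside the run. The run of Krt7 lies inside the annotated gene, since other transcripts of Krt7 start farther upstream, and it overlaps an exon of a noncoding one. Capitals mark GGGCGG or its reverse complement, a GC box.
Krt8, chr15:102004483-102004592, minus strand: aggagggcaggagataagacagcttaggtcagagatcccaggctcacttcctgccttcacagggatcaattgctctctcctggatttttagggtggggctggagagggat
Krt18, chr15:102028070-102028179, plus strand: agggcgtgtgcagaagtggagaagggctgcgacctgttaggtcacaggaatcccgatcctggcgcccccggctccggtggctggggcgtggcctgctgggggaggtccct
Krt7, chr15:101412292-101412401, plus strand: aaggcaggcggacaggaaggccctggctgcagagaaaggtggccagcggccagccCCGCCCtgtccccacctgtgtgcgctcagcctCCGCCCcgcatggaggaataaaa
Krt5, chr15:101712899-101713008, minus strand: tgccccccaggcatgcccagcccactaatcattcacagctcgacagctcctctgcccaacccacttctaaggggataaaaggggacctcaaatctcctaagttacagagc
Krt7 held 2 GC boxes in these bases and the other keratins shown held none. None of the 4 held, on either strand, any of the other motifs that are spelled out in the next paragraph. The ratio of observed to expected CpG was 0 for Krt8, 0.558 for Krt18, 0.482 for Krt7 and 0.138 for Krt5.

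Over 13826 protein-coding genes with a single RefSeq window, the 110 bases before the start were more CpG-rich in genes with higher levels. The median observed to expected CpG ratio was 0.897 for 1205 genes at 100 TPM or more, 0.859 for 4138 genes at 10 to 100 TPM, 0.723 for 1550 genes at 1 to 10 TPM, 0.547 for 400 genes under 1 TPM and 0.238 for 6533 genes not listed. A GC box (GGGCGG, either strand) occurred in 54.1% of promoters at 100 TPM or more, in 17.4% of those not listed and in 35.6% of all. TATAAA on either strand occurred in 3.07%, 11.7% and 6.81% of the same classes. CCAAT on either strand varied less, at 26.0%, 20.2% and 23.2%. The ETS-type letters CCGGAAG, on either strand, occurred in 13.6%, 1.78% and 6.76%. These motifs can overlap one another and a match is a run of letters, not a bound site. A CpG ratio under 0.25 was found in 36 of the 1205 promoters at 100 TPM or more (2.99%) and in 51.4% of those not listed.

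Lineage factors were mostly listed, at levels near those of other genes. Of 56 lineage factors, which are transcriptional regulators apart from the splicing regulators Esrp1 and Esrp2, 44 were listed, 28 reached 10 CPM and 4 reached 100 CPM, with a median of 19.4 TPM against 21.4 TPM over all listed genes. After Esrp1, the highest of the epithelial group in TPM were Klf4 (42.1 ± 2.74 TPM), Esrp2, Grhl2 and Klf5 (24.1 ± 3.08 TPM). The lowest was Tfap2c at 0.298 ± 0.101 TPM, and Tfap2b was not listed. Among luminal and lactogenic factors Cebpb, needed for alveolar development, was the highest at 462 ± 50.8 TPM. Gata3 (57.9 ± 6.68 TPM), Nfib (57.6 ± 9.13 TPM) and Stat3 (55 ± 3.62 TPM) followed and did not differ beyond their spread. Stat5b, one of the paired transducers of prolactin signals, lay at 30.3 ± 2.63 TPM, 3.74 to 5.07 times the TPM of Stat5a, with which it shares part of its sequence. With the longest transcript and the mean transcript length this ratio averaged 2.56 and 2.23. Elf5, Pgr, Cebpa and Spdef were not listed.

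Among basal and progenitor factors Sox9 was the highest in TPM with merged exons, at 63.6 ± 9.15 TPM. Runx1 was higher by CPM, and Runx3 was the highest with the mean transcript length. Sox9 was at 65.4, 83.1 and 76.6 CPM. The 3 RUNX genes were all listed, with Runx3 at 37.4 ± 5.02 TPM, Runx2 at 32.4 ± 4.76 TPM and Runx1 at 27 ± 4.61 TPM, and neighbours in this order did not differ beyond their spread. Snai2, a repressor of E-cadherin known from basal mammary cells, lay at 17.2 ± 2.13 TPM, and Id4 was the lowest at 7.38 ± 0.677 TPM. Sox10, Tcf7l1, Bcl11a, Bcl11b and Lef1 were not listed.

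Factors known for epithelial-mesenchymal transition were present beside Cdh1. Of 10 such genes 9 were listed and 7 reached 10 CPM. This is 77.8% of those listed, near the 74.2% of listed protein-coding genes, and none reached 100 CPM. Tcf3, which encodes E47 and is broadly expressed, was the highest at 91.7 ± 8.63 TPM. Snai1 was steady at 31.7, 31.8 and 30.8 CPM. Twist1 was at 21.2, 16.7 and 17.4 CPM, highest in replicate 1. Prrx1 was at 82.7, 86.9 and 83.4 CPM. The E-box repressors Zeb1 and Zeb2, with long transcripts, were at 4.14 ± 0.676 TPM and 4.36 ± 0.248 TPM, below Snai1 and Twist1 on the same scale in each library. Foxc2 was not listed and Snai3, the lowest, was at 1.76 ± 0.249 CPM.

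Mef2d, the gene that the study targets in its other cells, was present in each control library at 64.3, 77.1 and 71.7 CPM. MEF2 proteins are MADS-box transcription factors known from muscle, neurons and lymphocytes. Mef2a was at 80.1, 95.8 and 96.8 CPM and Mef2c was low, at 1.9, 2.2 and 2.5 CPM. Mef2b was not listed. Mef2d exceeded Mef2a 1.82 to 1.97 times in TPM, but with the longest transcript as length the mean ratio was 0.803, so the order of these neighbours was not fixed.

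Hox genes, which record position along the body axis, were low. Of 39 Hox genes 9 were listed (23.1%, against 52.9% of protein-coding genes). In every library 7 reached 1 CPM, and none reached 10 CPM. All 9 belonged to the A and B clusters. Among them were Hoxa5 (7.77 ± 0.47 TPM), Hoxa4 (5.5 ± 2.06 TPM) and Hoxb4 (4.61 ± 0.837 TPM). No gene of the C or D clusters was listed.

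Among classical cadherins Cdh1 stood far above the others. Of 12 classical cadherins 3 were listed. Cdh1, at 194 ± 20.2 TPM, exceeded Cdh2 (N-cadherin, 0.983 ± 0.168 TPM) 171 to 217 times in TPM over the libraries, and Cdh10 was at 0.233 ± 0.0681 TPM. With the longest transcript as length the mean ratio of Cdh1 to Cdh2 was 124. The catenins that join E-cadherin to actin were abundant. Ctnnb1 (beta-catenin) was at 884, 896 and 891 CPM and Ctnna1 (alpha-catenin) at 525, 552 and 575 CPM. Jup (plakoglobin, shared with desmosomes) was at 74 ± 9.18 TPM and Ctnnd1 (p120) at 29.2 ± 2.63 TPM. The neural and cardiac catenins Ctnna2, Ctnna3 and Ctnnd2 were not listed. All 7 nectins and partners reached 10 CPM, from the scaffold Afdn (afadin, 185 ± 16.2 TPM) and Vcl (vinculin, 85.5 ± 7.66 TPM) to Nectin3 (4.0 ± 0.158 TPM).

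Of 25 claudins, the pore and barrier proteins of tight junctions, 8 were listed and 5 reached 10 CPM. In TPM the order was Cldn3 (509.8 ± 9.32 TPM), Cldn4 (309 ± 12 TPM), Cldn7 (157 ± 5.25 TPM), Cldn12 (68.8 ± 2.31 TPM) and Cldn1 (25.6 ± 1.77 TPM), and the libraries of neighbours in this order did not overlap. Cldn9 and Cldn23 were near 1 CPM and Cldn15 was at 0.225 ± 0.0705 CPM. Cldn2, Cldn8 and the endothelial Cldn5 were among the 17 claudins not listed. The junctional adhesion molecule F11r lay at 133 ± 5.37 TPM and the adenovirus receptor Cxadr at 62 ± 3.9 TPM. The polarity gene Crb3, Marveld2 (tricellulin) and Marveld3 lay at 23.5, 20.1 and 16.2 TPM. All 10 scaffolds were listed. Cgnl1 (paracingulin, 224 ± 25.2 TPM) was the highest, followed by the polarity kinase Prkci (138 ± 12.3 TPM), Tjp1 (ZO-1, 121 ± 14.9 TPM) and Pard6b (117 ± 9.01 TPM), which did not differ beyond their spread. Tjp3 was the exception at 0.759 ± 0.108 CPM.

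Desmosomes showed more plaque than cadherin transcripts. All 9 plaque genes reached 10 CPM, with a summed level of 1050 to 1167 CPM. Of 9 desmosomal cadherins 3 were listed, summing to 22.7 to 27.0 CPM. Perp, a tetraspan membrane protein induced by p53 and needed for desmosomes, was the highest at 362 ± 2.6 TPM. Pkp1 (plakophilin 1), known from stratified epithelia, was at 283, 304 and 304 CPM. Pkp4 (81.5 ± 9.5 TPM), Jup (74 ± 9.18 TPM) and Pkp3 (72.8 ± 3.6 TPM) did not differ beyond their spread, and Evpl was the lowest at 13.3 ± 2.47 TPM. Dsg2 and Dsc2, the cadherins of simple epithelia, were at 16.6, 18.3 and 19.9 CPM and 5.71, 6.25 and 6.91 CPM. Dsg3 was at 0.44 ± 0.32 CPM, and Dsc1, Dsc3 and the Dsg1 genes were not listed.

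Of 20 connexins, the subunits of gap junction channels, 5 were listed. Gjb2 (Cx26) lay at 108 ± 6.18 TPM and Gja1 (Cx43) at 77.5 ± 2.76 TPM. Gja1 had the highest CPM at 237, 216 and 229 CPM. Gjc1 was at 11.4 ± 1.34 TPM. Gjb1, the Cx32 of secretory epithelia, was not listed.

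Among integrins, the collagen, fibronectin and laminin receptors, Itgb1 stood above the rest. It was at 1323, 1366 and 1377 CPM, or 1162 ± 60.7 TPM, 26.8 to 32.2 times the TPM of Itgb4. The other beta subunits at 10 CPM or more were Itgb5 (232 ± 15.1 TPM), Itgb4 (41 ± 6.16 TPM) and Itgb6 (12.8 ± 0.258 TPM), and Itgb3 was not listed. Itga3, the alpha subunit of the laminin receptor alpha3 beta1, was at 677, 789.5 and 791 CPM. It exceeded Itga6, the partner of Itgb4 in hemidesmosomes, 9.10 to 9.53 times in TPM, while the mean ratio was 5.19 with the longest transcript as length and 4.82 with the mean transcript length. Itgav (76.5 ± 6.36 TPM), Itga5 (59.8 ± 6.1 TPM) and the collagen receptor subunit Itga2 (22.8 ± 2.8 TPM) completed the alpha subunits at 10 CPM or more. The leukocyte integrins Itgal, Itgam and Itgax were not listed, while Itgb2, their beta subunit, was at 7.27, 7.03 and 5.0 CPM.

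All 9 hemidesmosome components were listed and 8 reached 10 CPM. Lamb3 (101 ± 10.3 TPM) and Lama3, which encode chains of laminin 332, were measured together with the tetraspanin Cd151 (148 ± 6.86 TPM) and the linker plectin (Plec, 100.4 ± 22.6 TPM). The exception was Col17a1, the transmembrane collagen of hemidesmosomes, at 0.634, 0.782 and 0.294 CPM. The long genes Plec and Dst were lowest in replicate 1, at 402, 554 and 597 CPM and 484, 672 and 679 CPM. Without that library their means were 575 CPM and 675 CPM.

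**Figure D4:**
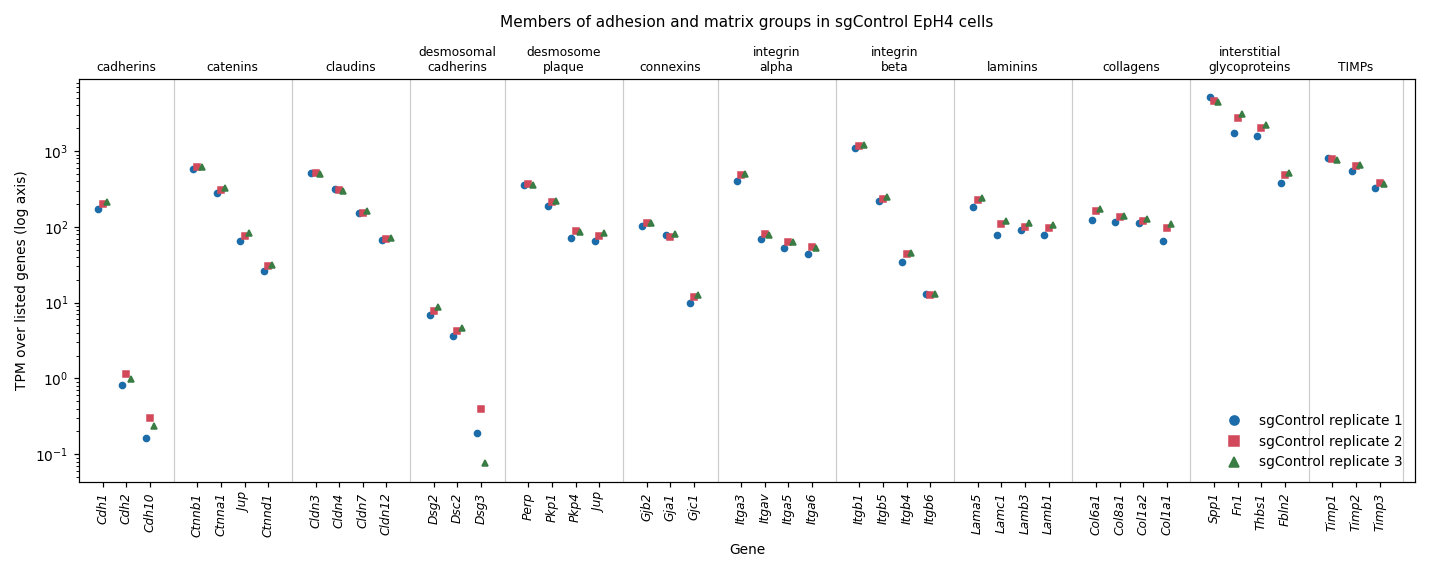
TPM over listed genes (y axis, log axis) of up to 4 of the highest members of each adhesion and matrix group, with 1 symbol per sgControl library. Desmosomal cadherins and Cdh2 lie under 10 TPM on average, while beta-catenin, Itgb1 and the interstitial glycoproteins lie at 457 TPM or more.

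Matrix genes included several of the most abundant transcripts. Of 136 matrix genes 82 were listed, 51 reached 10 CPM and 33 reached 100 CPM. The listed members had a median of 27.3 TPM, and their counts summed to a mean of 25289 CPM. The interstitial glycoproteins took most of these counts, at 13049 to 17773 CPM. Spp1, the secreted phosphoprotein osteopontin, was, with merged exons as length, the highest list member outside iron storage at 4733 ± 355 TPM. 11.6% of its 50-base words are shared, mainly with the overlapping Gm42793. Spp1 was at 2508, 2146 and 2049.9 CPM, highest in replicate 1, whereas Fn1 was lowest there. The Spp1 to Fn1 ratio in TPM was 3.0 in replicate 1 and 1.70 and 1.46 in the other libraries, so its size rested on that library. The mean ratio fell to 1.60 with the longest transcript as length and to 1.11 with the mean transcript length, so the order of these genes was not fixed. Thbs1 (thrombospondin 1) was at 2837, 3508 and 3701 CPM, Fbln2 (fibulin 2) at 722, 865 and 901 CPM and Postn (periostin) at 775, 778 and 786 CPM. Elastin (Eln), Fbn2, Vtn and Thbs2 were not listed, and Fbn1, which forms microfibrils, was at 0.838 ± 0.0523 CPM.

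Basement membrane genes differed widely in level. Of 11 laminin chains 8 were listed, and Lama5 was the highest at 611, 728 and 754 CPM. Lamc1 (102 ± 21.9 TPM), Lamb3 (101 ± 10.3 TPM) and Lamb1 (94.2 ± 14.5 TPM) lay lower and within their spread of each other. The mean of Lamc1 was 239 CPM, and 265 CPM without replicate 1. Lama1, Lama2 and Lama4 were not listed, and Lamc3 was at 0.50 ± 0.133 CPM. Sparc, a collagen-binding matricellular protein, was at 606 ± 59.4 TPM, and the heparan sulfate proteoglycans perlecan (Hspg2) and agrin (Agrn) were at 158 ± 41.8 TPM and 124 ± 19.2 TPM. Hspg2 was lowest in replicate 1, at 469.6, 704 and 757 CPM, with a mean of 731 CPM without it. Of the nidogens, which link laminin to collagen, Nid1 was at 0.634, 0.142 and 0.147 CPM and Nid2 was not listed.

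Of 44 collagen genes 23 (52.3%) were listed, near the share of all protein-coding genes, 9 reached 10 CPM and 6 reached 100 CPM, with a median of 2.96 TPM. Col6a1 (151 ± 26.7 TPM), Col8a1 (129 ± 11.1 TPM), Col1a2 (119.8 ± 7.32 TPM) and Col1a1 (90 ± 23 TPM) were the highest with merged exons, and Col8a1 differed from neither Col6a1 nor Col1a2 beyond their spread. Col1a2 was the highest collagen with either other length and by CPM. Col1a1 and Col1a2 form one trimer, and Col1a1 was lowest in replicate 1 (125, 179 and 199.5 CPM, mean without it 189 CPM) while Col1a2 hardly varied (414, 423 and 439.8 CPM). Of the basement membrane chains, Col4a5 was at 121, 139.8 and 143 CPM, and Col4a1 and Col4a2 were not listed. The collagen chaperone Serpinh1 was at 667 ± 14 TPM, the crosslinking transglutaminase Tgm2 at 263 ± 20 TPM, and Loxl4, Plod3 and Plod2 at 84.8, 81.4 and 56 TPM. Lox and Loxl2 were not listed.

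Cell surface proteoglycans were led by the syndecans Sdc4 (331 ± 18 TPM) and Sdc1 (250.4 ± 3.2 TPM), with Gpc1 at 131 ± 19.7 TPM and Sdc2 at 124 ± 7.72 TPM. Inhibitors of matrix metalloproteases outweighed the listed metalloproteases in summed counts, which are not scaled by length. Other protease families were not summed. Timp1 (782 ± 25.8 TPM), Timp2 (609.7 ± 60.5 TPM) and Timp3 (357 ± 28.6 TPM) summed to 1618 to 1759 CPM, and 10 listed metalloproteases of 22 summed to 183 to 198 CPM. Mmp14, the membrane-type protease, was the highest of these at 129.5, 138 and 139 CPM. Mmp3 was at 13.7 ± 1.13 CPM, Mmp9 at 14 ± 1.95 CPM and Mmp11 at 11 ± 0.914 CPM. Mmp7, Mmp13 and Timp4 were not listed.

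Receptor genes lay near the level of other genes. Of 154 receptors 104 were listed, 81 reached 10 CPM and 18 reached 100 CPM. The share of listed receptors at 10 CPM, 77.9%, was near the 74.2% of protein-coding genes. Their median of 20.2 TPM was near the 21.4 TPM of all listed genes and below the 25.3 TPM of listed protein-coding genes. Axl, a TAM-family kinase that binds Gas6, was the highest growth factor receptor kinase at 701, 753 and 744 CPM. Met, the receptor of hepatocyte growth factor, was at 280.2, 309.6 and 322 CPM, and Axl exceeded it 3.52 to 3.82 times in TPM. Ryk (109 ± 3.1 TPM), Fgfr1 (74.1 ± 7.02 TPM) and Ptk7 (66 ± 5.35 TPM) followed. Kit, Mertk, Mst1r and Fgfr4 were not listed, and Ret was at 0.283 ± 0.0649 CPM.

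The ERBB receptors, which bind EGF family ligands and neuregulins, were present without Erbb4, which was not listed. Erbb2 was at 74.3, 87 and 82.5 CPM, Egfr at 52, 59.1 and 58 CPM and Erbb3 at 20.1, 24.7 and 24.7 CPM. In TPM, Erbb2 exceeded Egfr 3.09 to 3.20 times and Egfr exceeded Erbb3 1.25 to 1.38 times. With the mean transcript length these ratios averaged 1.30 and 4.98, so the order held while the size of each step depended on the length. Their ligand gene Areg was at 24.9, 21.7 and 21.2 CPM.

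Of 14 Eph receptors 8 were listed, and Epha2 was the highest at 364, 387 and 392 CPM, followed by Epha1 (99.1 ± 4.82 TPM) and Ephb4 (81.5 ± 9.21 TPM). Among receptors for TGF-beta and BMP, Tgfbr2 was at 280.4, 307 and 327 CPM and its partner Tgfbr1 was at 46.9 ± 1.05 TPM, 2.40 to 3.08 times lower in TPM, or 1.51 times on average with the mean transcript length. Eng (60.2 ± 8.94 TPM) and Bmpr1a (59.1 ± 3.44 TPM) lay at the same level, and Bmpr1b and Acvrl1 were not listed. Smo, the transducer of Hedgehog signals, was at 165 ± 11 TPM, above the highest Frizzled genes Fzd6 (24.7 ± 2.43 TPM), Fzd2 (24.5 ± 2.06 TPM) and Fzd7 (20.1 ± 2.15 TPM). Notch2 (53.3 ± 10.4 TPM) exceeded Notch1 (8.71 ± 1.92 TPM) 5.94 to 6.38 times in TPM, but the mean ratio was 4.21 with the longest transcript and 1.14 with the mean transcript length. Notch3 was at 1.23 ± 0.481 CPM, and Notch4 and the stem cell marker Lgr5 were not listed. The Wnt coreceptors Lrp5 and Lrp6 were at 45.5 ± 7.73 TPM and 35.1 ± 4.19 TPM.

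Nuclear receptors were led by the retinoic acid receptor Rarg (94.9 ± 8.08 TPM) and the partners Rxra (58.3 ± 5.54 TPM) and Rxrb (51.4 ± 0.457 TPM). The glucocorticoid receptor Nr3c1, which takes part in lactogenic induction, was at 106, 118 and 112 CPM, and the vitamin D receptor Vdr at 65.2, 67.2 and 71.3 CPM. Esr1 was at 1.5 ± 0.103 TPM and Nr3c2 at 0.537 ± 0.263 TPM, and Esr2, Pgr and Rarb were not listed. Cytokine receptors were led by Ltbr (174 ± 1.7 TPM), Tnfrsf1a (124 ± 6.61 TPM) and the shared IL-6 family subunit Il6st (91.9 ± 13.2 TPM), with both interferon gamma receptor genes present, Ifngr1 at 39.8 ± 0.753 CPM and Ifngr2 at 51.2 ± 3.03 CPM. Of 12 Toll-like receptors 6 were listed, with Tlr2 (40.2 ± 4.95 TPM), Tlr3 (33.8 ± 2.66 TPM) and Tlr4 (15.6 ± 0.497 TPM) highest.

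Of the 3 longest lists, the metabolic genes were the most completely listed. Of 191 members 158 were listed, 137 reached 10 CPM and 70 reached 100 CPM, with a median of 81.9 TPM. The glycolytic enzymes Pkm (2058 ± 41.6 TPM) and Gapdh (2007 ± 143 TPM) did not differ beyond their spread, and Ldha, which makes lactate, was at 1371 ± 23.1 TPM. Pgk1 (1228 ± 75.5 TPM), Eno1 (821 ± 30.7 TPM) and Aldoa (816 ± 43.9 TPM) followed, and Eno2 was the lowest at 1.96 ± 0.69 CPM. Ldha exceeded Ldhb 197 to 250 times in TPM, and the mean ratio was 330 with the longest transcript and 405 with the mean transcript length. Several of these genes have processed pseudogenes and share 50-base words with them, among them Gapdh at 24.7% and Pgk1 at 53.9%.

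Glucose entry was represented by 1 transporter at 10 CPM or more. Slc2a1 (GLUT1) was at 62.4, 67.1 and 61.2 CPM, and the other listed transporters Slc2a8, Slc2a6 and Slc2a9 were at 4.48, 2.92 and 1.2 TPM. Slc2a2, Slc2a3, Slc2a4 and Slc5a1 were not listed, nor were the liver and testis isoforms Pklr, Pgk2 and Ldhc or the lactate exporter Slc16a3. The gluconeogenic genes Pck1, Fbp1 and G6pc were not listed, and mitochondrial Pck2 was at 13.9 ± 0.332 TPM. All 7 pentose phosphate genes reached 10 CPM, led by Pgd (197 ± 9.54 TPM) and Taldo1 (184 ± 13.8 TPM).

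All 23 citrate cycle genes reached 10 CPM, from Sdhd (353 ± 28.7 TPM) and Mdh2 (340.0 ± 10.1 TPM), which did not differ beyond their spread, to Sucla2 (44.8 ± 2.79 TPM). All 15 cholesterol genes were listed and 14 reached 10 CPM. Hmgcs1 (175 ± 9.18 TPM), Cyp51 (168 ± 3.61 TPM) and Sqle (149 ± 9.05 TPM) were among the higher members of this list, and the exporter Abca1 was the lowest at 8.17 ± 2.18 CPM. In fatty acid synthesis Scd2, a stearoyl-CoA desaturase, was at 1096, 1211 and 1208 CPM, 3.08 to 3.27 times the TPM of Scd1, or 1.82 times on average with the mean transcript length. The lipid droplet protein Plin2 (523 ± 18 TPM), the fatty acid carrier Fabp5 (381 ± 40.8 TPM) and Acly (242 ± 19.6 TPM) were next, and Cd36, Fabp3 and the adipocyte genes Plin1 and Plin4 were not listed. Oxidation genes were lower, led by Acadl (129.7 ± 1.88 TPM), with Cpt1b at 0.475 ± 0.101 CPM.

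The serine synthesis enzymes Phgdh (510.2 ± 18.4 TPM) and Psat1 (276 ± 5.9 TPM) and the mitochondrial Shmt2 (256 ± 13.6 TPM) led a list of which 13 of 15 members were listed and all 13 reached 10 CPM. Odc1, which makes polyamines, was at 339 ± 16.3 TPM, and asparagine synthetase (Asns) at 249.9 ± 5.98 TPM. The cystine transporter Slc7a11 was the lowest of 22 amino acid genes at 3.76, 3.13 and 3.53 CPM. Iron storage genes were among the most abundant of all: the ferritin light chain Ftl1 was at 4964 ± 102 TPM and the heavy chain Fth1 at 2199 ± 42.4 TPM. More than 50% of the 50-base words of Ftl1 occur elsewhere (50.9%), mainly in Ftl1-ps1. The redox genes Txn1 (1896 ± 181 TPM) and Gpx1 (481 ± 20 TPM) and the transferrin receptor Tfrc (421 ± 7.09 TPM) were next, and Nqo1 was the lowest at 10 ± 0.429 CPM.

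**Figure D5:**
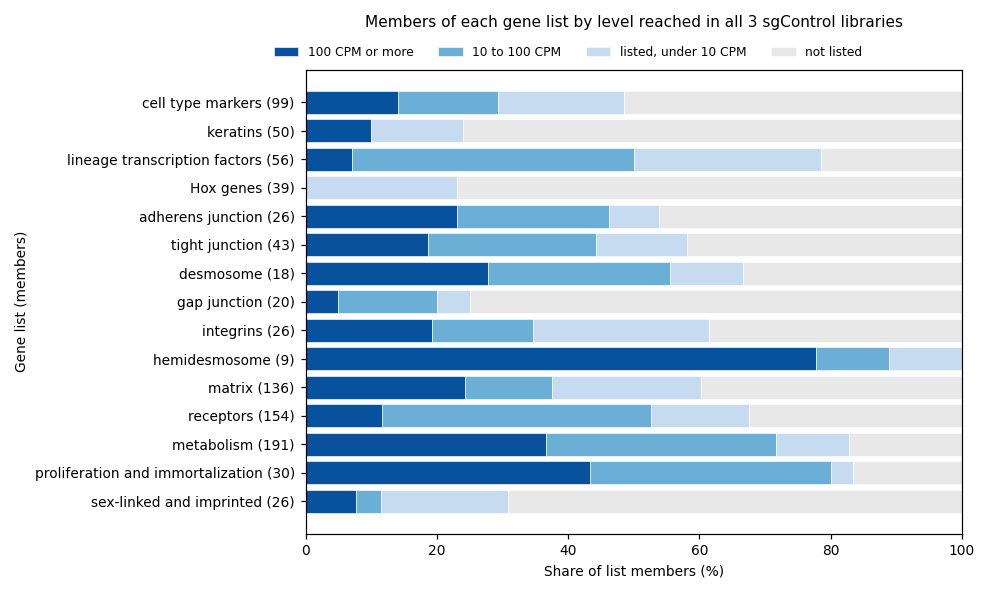
Share of the members of each gene list (x axis, percent; number of members in parentheses) that reached 100 CPM, 10 to 100 CPM or less in all 3 sgControl libraries, or were not listed. Metabolism and proliferation lists are mostly at 10 CPM or more, while 38 of 50 keratins and 30 of 39 Hox genes are not listed.

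Cell cycle genes were abundant. Of 30 cell cycle and immortalization genes 25 were listed, 24 reached 10 CPM and 13 reached 100 CPM. Ccnd1 (cyclin D1) was at 738, 763 and 754 CPM, and Ccnd2 was near the floor at 0.488, 0.426 and 0.515 CPM. Its partner Cdk4 was at 359 ± 14.5 TPM. The S and G2 phase genes Top2a (341 ± 21.6 TPM), Mki67 (241 ± 31.2 TPM) and Ccna2 (220.2 ± 6.05 TPM) were abundant. The inhibitors Cdkn1b (p27, 209 ± 4.73 TPM) and Cdkn2c (p18, 113 ± 2.24 TPM) and Trp53 (p53, 188 ± 10.6 TPM) were present. Cdkn2a and Cdkn2b, inhibitors known to limit the growth of primary cultures, were not listed, while Mtap, the nearest listed gene beside them on chromosome 4, was at 245 ± 6.13 CPM. Tert, the catalytic subunit of telomerase, was at 25.2, 27.1 and 24.3 CPM. The telomerase RNA gene Terc, whose product lacks a poly(A) tail, and Cdkn1c were not listed.

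Xist was abundant and most Y-linked genes had no value. Xist, the noncoding RNA that coats the inactive X chromosome, was at 2052, 2168 and 2155 CPM, or 415 ± 24.9 TPM. The Y-linked genes Ddx3y, Eif2s3y, Kdm5d, Uty and Sry were not listed, and 1 of 183 protein-coding genes annotated on the Y chromosome had a value, Gm47283 at 14.3 ± 1.93 CPM. Whether Gm47283 shares sequence with genes elsewhere was not counted, so its value does not by itself show a Y-linked transcript. The median level of 374 listed protein-coding genes on the X chromosome was 26.6 TPM, beside 25.2 TPM for 11267 on the autosomes. Tsix, the antisense transcript of Xist, was at 4.2, 12.7 and 15.1 CPM, lowest in replicate 1, and its exons overlap those of Xist on the other strand.

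Imprinted genes were mostly without a value. Of 19 imprinted genes, some of them noncoding, 6 were listed (31.6%, against 52.9% of protein-coding genes) and 2 reached 10 CPM. Igf2r, which clears IGF2, was at 175, 228 and 250.3 CPM, and Snrpn at 13.3, 13.4 and 13.4 CPM. Phlda2 was at 4.3 ± 1.11 CPM, Igf2 at 3.76 ± 0.752 CPM, Mest at 0.853 ± 0.195 CPM and Nnat at 0.389 ± 0.365 CPM. H19, Meg3, Dlk1, Peg3 and Peg10 were not listed.

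The listed members varied between libraries about as much as other genes. Of 404 members with a mean of at least 10 CPM, 311 (77.0%) had a coefficient of variation of at most 10%, beside 80.2% of all 8942 genes at that level. Their median coefficient of variation was 5.95%, and over all genes it was 5.94%, beside 3.47% from counting error alone. Without replicate 1 the median over all genes was 3.02%, a value over only 2 libraries, which is lower by construction than one over 3. The chi-square per degree of freedom over genes was 2.01 between replicates 2 and 3, against 10.6 and 13.7 between replicate 1 and each of them, where counting error alone gives about 1. After Tsix, the most variable members were the long matrix genes Fn1 (25.4%), Col6a3 (24.4%), Hspg2 (23.8%) and Col1a1 (22.8%), each lowest in replicate 1. The mean of Col6a3 was 95.6 CPM, and 108 CPM without that library.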

How the data were processed

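Poly(A)-selected RNA of sgControl EpH4 cells was sequenced in 3 strand-marked libraries. The deposited values are raw counts of reads per gene that the authors made; the submitters' processing notes name CASAVA, STAR, Subread and GRCm38, and the study's methods describe alignment to GRCm38 with a GENCODE annotation. Rows with low counts had been left out by the authors: the smallest row maximum over the 5 libraries of the series is 11 counts, and 241 rows have fewer than 11 counts in each sgControl library. All 12934 gene identifiers matched GENCODE M21, 12811 with the same version.

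CPM were computed from totals over the listed genes without a further factor, and TPM from the length of the merged M21 exons. Sharing of 50-base words was counted over all M21 transcripts. TMM and RLE factors came from edgeR 4.0.16 in R 4.3.3, and other steps used Python 3.11.15, pandas 2.3.3, numpy 2.4.6 and bedtools 2.31.1; the code was tested on simulated data. With totals of 13601145 to 20498563 counts, 3 counts correspond to 0.146 to 0.221 CPM. Promoter windows of 13826 of 21958 protein-coding genes were taken from RefSeq (GRCm38.p6).

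The libraries and lists were chosen with earlier results of these data known. The genes named were the cell type markers, the 5 highest by TPM, the lowest, the floor-level and the not listed members of each group, the 20 highest genes overall and the 10 most variable. Ldhb, Stat5a, Zeb1, Zeb2, Notch1, Ifngr2, Cldn9, Cldn23, Col6a3, Tert, Gm47283 and Mtap were named after their values were seen. One group was described, so no test was made. The alternatives were other scaling factors, other totals, other lengths, other cutoffs and leaving out each library. The sgMef2d libraries were not analysed here, and some genes that this rule names are not reported here.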

Additional observations from a re-analysis of the deposited data

How the results depend on the processing

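No paired analysis was possible because a single group was described and no groups were compared. The counts of genes at 1, 10 and 100 CPM and the number of members of each list at 10 CPM stayed within 1.5 times their values under TMM and RLE factors, with the 100 most abundant genes left out of the total, without each library in turn and, for the lists, with TPM in place of CPM. The mean CPM of 536 members moved by less than 1 SD under either factor, and a total without the 100 most abundant genes raised them by a median factor of 1.22. Leaving out 1 of 3 libraries cannot move a mean by 1 SD, so these changes were read as folds: they lay between 0.371 and 1.5, with 3, 2 and 3 genes moving over 1.5-fold without replicates 1, 2 and 3. Low genes depended on single libraries: without replicate 1, Nid1 was at 0.145 CPM; without replicate 2, Prlr was at 0.208 CPM and Dsg3 at 0.269 CPM; without replicate 3, Krt17 was at 0.431 CPM, Lyz2 at 0.133 CPM and Nnat at 0.18 CPM. Krt5, with 4 counts in all, was at 0.0368 CPM without replicate 1 and at 0.11 CPM without replicate 2. The order of genes depended on length: of 60 groups with a value, the same gene was highest in 51 with the longest transcript, in 41 with the mean transcript length and in 38 by CPM without length. Among the changes, Krt7 replaced Ly6a as the highest luminal marker with either other length. At these depths a gene near the floor cannot be told from a silent one.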

Other observations

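Among the 20 highest genes by TPM, which are mostly mitochondrial, ribosomal and translation genes, were Lgals1 at 7332 ± 585 TPM, the galectin of mesenchymal and many cultured cells, and Actb at 5848 ± 152 TPM, the cytoplasmic actin. The most abundant were mt-Nd1 at 21918 ± 1088 TPM and mt-Co1, which shares sequence with a nuclear copy, at 17387 ± 1122 TPM. The translation factor Eef1a1 was at 12106 ± 439 TPM, with 39.4% of its 50-base words shared.

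Of 26 genes with at most 3 counts in each library, 20 were protein-coding. Each row of the table has at least 11 counts in some library of the series, so these genes have a row only through the libraries not analysed here, and which genes they are reflects that selection. Besides Krt5 and Krt6b they included Sprr1b with 0 counts in each library and Serpinb2 with 2, 0 and 1 counts, and the interferon-induced Mx1 with 0, 1 and 2 counts. Abca12, the lipid transporter of the epidermal barrier, had 1, 2 and 0 counts, and Nnmt, a nicotinamide methyltransferase, had 2, 0 and 2 counts.

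The gene with the highest coefficient of variation among those with a mean of at least 10 CPM was Syn3, at 5.76, 24.2 and 26.4 CPM. Of the 10 most variable genes, the other 9 have a biotype other than protein-coding, Tsix included. Among them Gm26619 was at 33.7, 77.2 and 83.2 CPM, and Gm10076 was highest in replicate 1, at 228, 133 and 119 CPM.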
